A study of Rattus norvegicus with 9 samples.

Results

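The genes described are the rat MHC class II genes and their transcriptional coactivator Ciita, 10 of the 35843 genes in the deposited expression table. They were picked by gene name: Cd74, RT1-Ba, RT1-Bb, RT1-Da, RT1-Db1, RT1-DMa, RT1-DMb, RT1-DOa, RT1-DOb and Ciita. Each name stood in 1 row of the table, and all 10 had reads. RNA-seq of poly-A RNA was performed on the left ventricle of adult male Sprague-Dawley rats at day 28, with 3 rats in each of 3 groups. Group Sham had the operation without infarction and saline by daily gavage. Group MI had myocardial infarction, made by tying off the left anterior descending artery (LAD), and the same saline. Group MI + DAPA (1st d), written here as group DAPA, had the same infarction and dapagliflozin, an inhibitor of the renal sodium-glucose cotransporter SGLT2, at 1 mg/kg by daily gavage from the first day. Per the study's methods the molecular work used mainly the border of the infarct, with the scar cut away, and the matching part of the heart in group Sham. For the RNA-seq itself the study names left ventricles in its methods and infarct myocardium in its results. How much scar these libraries held is therefore not settled. No sham-operated rats with DAPA were sequenced, so the drug was measured only in infarcted hearts, and groups MI and DAPA each enter 2 of the 3 comparisons.

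MHC class II molecules are pairs of an alpha and a beta chain that present peptides from taken-up protein to CD4 T cells, and they are carried mainly by dendritic cells, macrophages and B cells. In the rat the classical molecules are RT1-B (RT1-Ba with RT1-Bb) and RT1-D (RT1-Da with RT1-Db1), the counterparts of human HLA-DQ and HLA-DR. Cd74, the invariant chain, escorts new class II molecules to the endosome and keeps their groove filled. RT1-DM then exchanges the last piece of the invariant chain for a peptide, and RT1-DO holds RT1-DM back. Ciita does not bind DNA itself. It docks on the factors that sit on the conserved X and Y boxes of class II promoters, and in most cells its level sets that of the class II genes.

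The boxes are shown for the 7 RT1 members with an entry because they are the letters that class II genes are known to share. The promoter table of RefSeq on build GRCr8, with 250 bases before to 50 bases after each start, held 8 of the 10 members. The Y box core ATTGG, on either strand, stood in 8 of these 8 and in 37.5% of all 33469 promoters in the table. The X box core (AGNAAC, any 3 bases and TG) stood in 4 of 8 (Cd74, RT1-Da, RT1-Db1 and RT1-DOb) and in 4.37% of all promoters. An X box core followed within 40 bases by a Y box on the same strand stood in 3 of 8 (RT1-Da, RT1-Db1 and RT1-DOb) and in 0.185% of all promoters. The windows of 60 bases below run 5′ to 3′ on the strand of the gene, with the Y box, and the X box core where it matched, in capitals.
RT1-Da (chr20:4515321-4515380, plus strand): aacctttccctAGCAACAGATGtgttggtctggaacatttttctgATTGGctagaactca
RT1-Db1 (chr20:4560228-4560287, minus strand): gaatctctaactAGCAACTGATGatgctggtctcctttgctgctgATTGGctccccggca
RT1-DOb (chr20:4627592-4627651, minus strand): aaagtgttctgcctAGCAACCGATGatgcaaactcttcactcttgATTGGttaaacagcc
RT1-Ba (chr20:4576969-4577028, plus strand): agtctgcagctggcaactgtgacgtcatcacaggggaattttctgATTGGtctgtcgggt
RT1-Bb (chr20:4604165-4604224, minus strand): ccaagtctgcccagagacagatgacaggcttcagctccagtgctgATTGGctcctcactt
RT1-DMa (chr20:4712385-4712444, minus strand): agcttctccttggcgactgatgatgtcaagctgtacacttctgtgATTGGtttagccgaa
RT1-DOa (chr20:4758516-4758575, minus strand): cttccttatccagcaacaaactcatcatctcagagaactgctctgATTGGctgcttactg
The Y box began 43 bases before the start in RT1-Ba and 107 bases before it in RT1-DOa, the nearest and farthest of these windows. Between the end of the X box core and the Y box lay 23 bases in RT1-Da, 22 in RT1-Db1 and 20 in RT1-DOb. A match of letters is a description of the window and not of a bound factor, and no match says only that these letters are not there.

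The values are FPKM, fragments per kilobase of gene and per unit of library size, 1 value per rat. Recovered reads ranged from 13597239 to 17210909 per rat, and those outside the mitochondrial genome from 5702454 to 13171891, the fewest being in group Sham. Mitochondrial genes took 63.2% ± 3.18 of the reads in Sham, 13.8% ± 6.15 in MI and 25.6% ± 7.42 in DAPA (SD, n = 3 each), and the FPKM denominator did not follow all reads. Heart muscle was present throughout, with 9 cardiomyocyte markers summing to between 2150 and 19068 FPKM per rat. The rat MI replicate 2 stood apart from the other rats of its group: it had the lowest cardiomyocyte sum and the highest sums of macrophage, B cell, plasma cell and T cell markers. Members called in DAPA vs. MI are given with and without it.

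In group MI vs. group Sham, class II transcripts were higher almost throughout. Of the 10 members, 7 were called higher (limma p under 0.05 and log2 fold change over 1), which 12.1% of all 13485 genes tested were, and 0 were called lower, as 10.3% of all genes were. At a limma p under 0.05 alone, 9 were higher and 0 lower, against 24.5% and 24.4% of all genes. With the Benjamini-Hochberg adjusted limma p, 9 of 10 were higher at 0.05, against 19.5% of all genes, and the adjusted p-values given from here on are these. The median log2 fold change of the members was 2.03, and that of all genes -0.01. Every MI rat was above every Sham rat for 9 of the 10, as it was for 27.1% of all genes, and RT1-DMb was the exception. Each of these counts of 9 includes RT1-DMa. It reached 1 FPKM only in the MI rats and so was tested only through the group where it was high. Among the Sham rats Ciita and RT1-DOb reached 1 FPKM in replicate 1 alone, and RT1-Bb in replicates 1 and 3. These members, all among the 7 called, thus also needed MI rats to be tested.

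In group DAPA vs. group MI, all 10 members had a lower mean in group DAPA. By the same rule 5 were called lower (Cd74, RT1-Da, RT1-Db1, RT1-Ba and RT1-DOa), against 1.11% of the 13251 genes tested, and 0 were called higher, against 0.951%. At an unadjusted limma p under 0.05 alone, 8 of 10 were lower and 0 higher, against 3.9% and 4.59% of all genes. None of the members, and none of all the genes tested, passed an adjusted limma p of 0.05, so these calls stand at the unadjusted threshold only. For the 8 members the adjusted p = 0.558, for RT1-Bb the adjusted p = 0.612 and for RT1-DMb the adjusted p = 0.737, all from limma. The median log2 fold change was -1.19, and that of all genes -0.02. Every DAPA rat lay below every MI rat for 8 of 10 members and for 7.16% of all genes, the exceptions being RT1-Bb and RT1-DMb, whereas the opposite order held for 0 members and 6.63% of all genes. Each of these counts of 8 includes RT1-DMa, which here too was tested only through the MI rats.

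In group DAPA vs. group Sham, 9 members passed the filter on low values. Of these, 3 were called higher (Cd74, RT1-Da and RT1-Ba), against 9.54% of the 13359 genes tested, and 0 lower, against 8.16%. At a limma p under 0.05 alone, 5 were higher and 0 lower, against 21.1% and 20.4% of all genes. Of the 3 called, 2 (Cd74 and RT1-Da) had an adjusted p under 0.05, as 14.5% of all genes did among those higher. Every DAPA rat was above every Sham rat for Cd74, RT1-Da and Ciita (3 of 9, against 23.2% of all genes) and below for RT1-DOa (1 of 9, against 23.3%). The median log2 fold change was 0.93, and that of all genes 0.01. RT1-DMa was not tested here because too few of these rats reached 1 FPKM. In the other comparisons RT1-DMa passed the filter only through the MI rats, where it was highest.

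**Figure D1:**
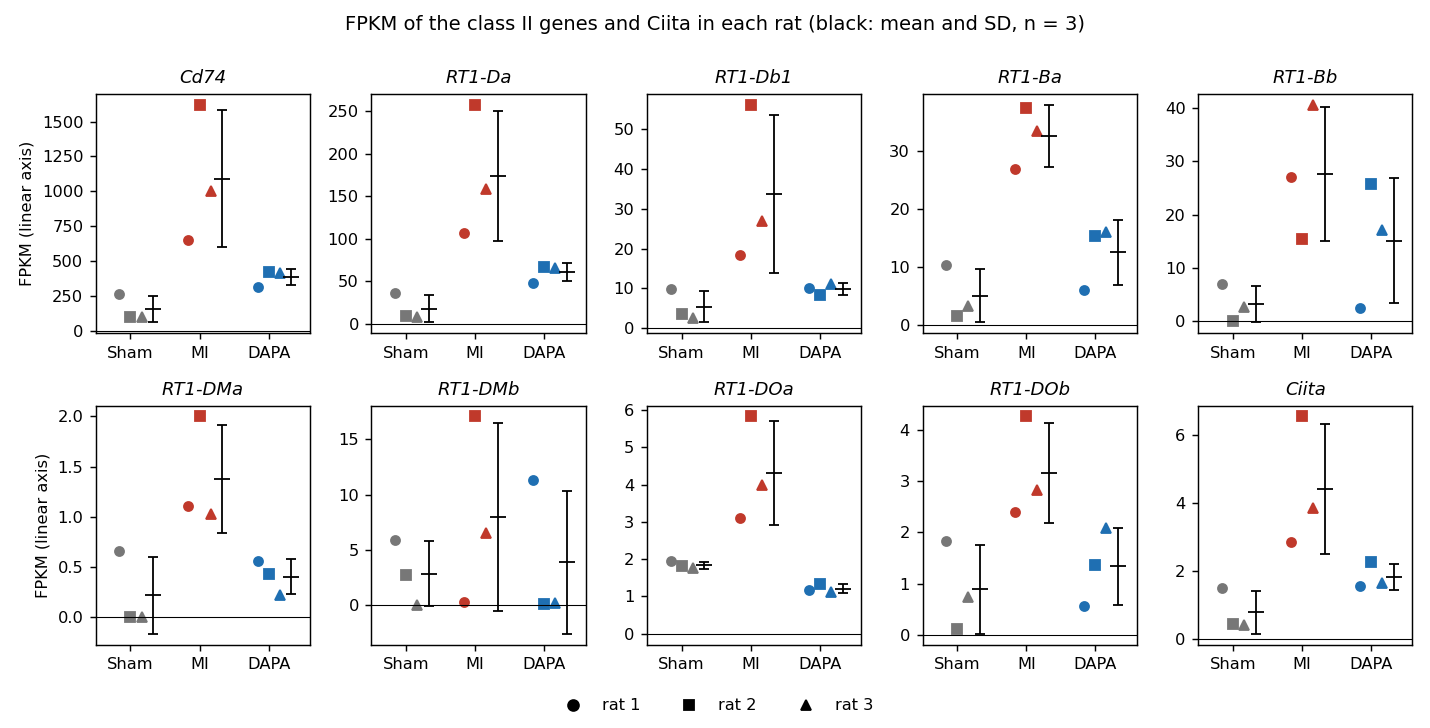
FPKM (linear vertical axes, one panel per gene) of each class II gene and Ciita in each rat of groups Sham, MI and DAPA, with the mean and SD of 3 rats in black. For 8 genes the 3 DAPA rats lie below the 3 MI rats, while RT1-Bb and RT1-DMb overlap between these groups.

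**Figure D2:**
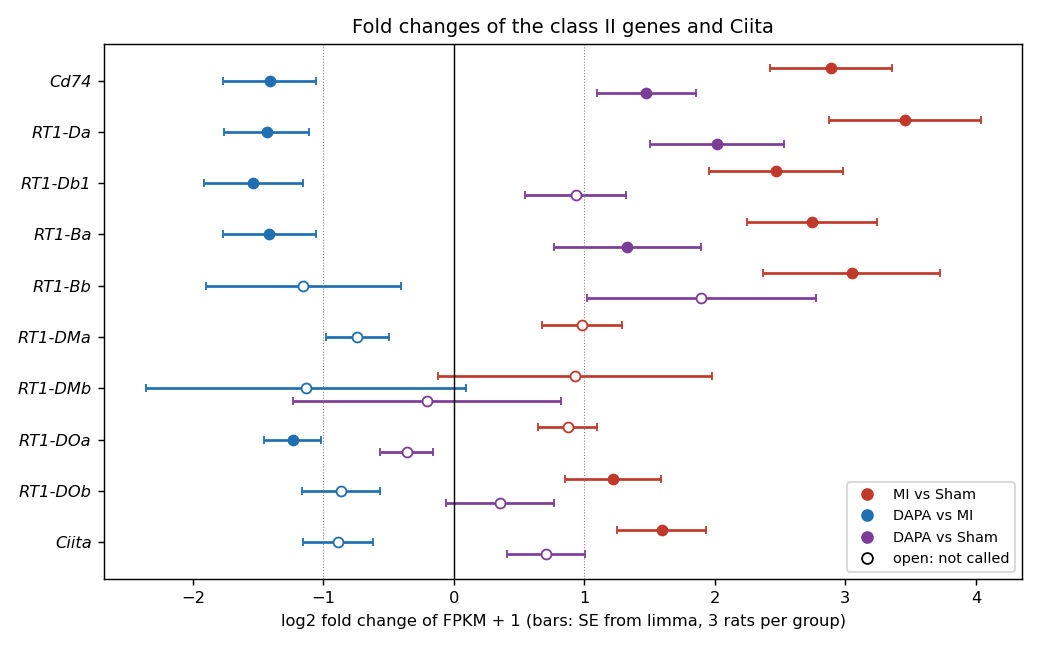
Log2 fold change of FPKM + 1 (horizontal axis) for each gene in each comparison, with the limma SE as bars, filled points called at p under 0.05 and absolute log2 fold change over 1, and dotted lines at 1 and -1. RT1-Da has the highest change in MI vs. Sham (3.45), RT1-Db1 the lowest in DAPA vs. MI (-1.54), and the bars of RT1-DMb cross 0 in all 3 comparisons.

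Cd74, the invariant chain, was the most abundant member in every group, with 1221 to 39735 reads per rat. Its level was 260.3, 98.5 and 99.7 FPKM in the Sham rats, 650.4, 1618 and 1002 FPKM in the MI rats, and 315.9, 422.3 and 416.8 FPKM in the DAPA rats. The means were 153 ± 93.1, 1089.9 ± 490 and 385 ± 59.9 FPKM (SD, n = 3 each). The 3 groups did not overlap, and the DAPA rats lay close together between the other groups. Cd74 was 7.13-fold higher in MI than in Sham by the means (log2 fold change 2.89, SE 0.47, adjusted p = 0.00423). It was 2.83-fold lower in DAPA than in MI (log2 fold change -1.41, SE 0.36). It was 2.52-fold higher in DAPA than in Sham (log2 fold change 1.47, SE 0.38, adjusted p = 0.0247). Without MI replicate 2, Cd74 was lower in DAPA than in MI by a log2 fold change of -1.08 and still called.

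RT1-Da, the alpha chain of RT1-D, was next in level and moved with Cd74. Its FPKM was 36.7, 9.42 and 7.58 in the Sham rats, 106.5, 256.9 and 158.8 in the MI rats, and 48.1, 67.1 and 66.1 in the DAPA rats. Here too the 3 groups did not overlap. The log2 fold change was 3.45 (SE 0.58, adjusted p = 0.00481) in MI vs. Sham, the highest among the members. Between DAPA and MI it was -1.43 (SE 0.33), or -1.11 and still called without MI replicate 2, and in DAPA vs. Sham it was 2.02 (SE 0.51, adjusted p = 0.0241).

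RT1-Db1, the beta chain that pairs with RT1-Da, was measured at 9.82, 3.60 and 2.63 FPKM in the Sham rats, 18.2, 56.0 and 26.9 FPKM in the MI rats, and 10.2, 8.29 and 11.1 FPKM in the DAPA rats. The DAPA rats were below all MI rats and overlapped with the Sham rats, since DAPA replicate 2 lay under Sham replicate 1. The log2 fold change was 2.47 (SE 0.51, adjusted p = 0.00974) in MI vs. Sham and -1.54 (SE 0.38) in DAPA vs. MI. Without MI replicate 2 the value in DAPA vs. MI was -1.10 and was still called. Against Sham, DAPA was at 0.93 (SE 0.38, adjusted p = 0.108) and not called, but without Sham replicate 1 it was called at 1.40. The near copy RT1-Db2 was at 0 to 0.385 FPKM, and how the authors' counting split reads between these genes is not given in the sources used here, so the level of RT1-Db1 is uncertain in that respect. The file also held RT1-Ha, at 0 in every rat.

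The RT1-B chains come next. RT1-Ba, the alpha chain, was at 10.3, 1.57 and 3.25 FPKM in the Sham rats, 27.0, 37.4 and 33.5 FPKM in the MI rats, and 6.01, 15.4 and 16.0 FPKM in the DAPA rats. All MI rats stood above all others, and DAPA replicate 1 fell within the Sham range. The log2 fold change was 2.74 (SE 0.50, adjusted p = 0.00605) in MI vs. Sham and -1.41 (SE 0.35) in DAPA vs. MI. Without DAPA replicate 1 the latter was -0.995, under the fold threshold, and without MI replicate 2 it was -1.31 and still called. The call in DAPA vs. Sham (1.33, SE 0.56, adjusted p = 0.117) was lost when any 1 of 4 rats was left out, Sham replicates 2 and 3 and DAPA replicates 2 and 3, at values of 0.85 to 1.21.

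RT1-Bb, the beta chain of RT1-B, ranged over 7 to 3143 reads per rat. It was at 6.96, 0.168 and 2.64 FPKM in the Sham rats, 27.1, 15.4 and 40.5 FPKM in the MI rats, and 2.61, 25.7 and 17.1 FPKM in the DAPA rats. DAPA replicates 2 and 3 were within the MI range and DAPA replicate 1 was within the Sham range. RT1-Bb rose in MI vs. Sham by a log2 fold change of 3.05 (SE 0.68, adjusted p = 0.0128). Between DAPA and MI the value was -1.15 (SE 0.75, adjusted p = 0.612), so that a change could not be told from the spread between rats, and in DAPA vs. Sham it was 1.89 (SE 0.88, adjusted p = 0.144). With 1 rat left out the value in DAPA vs. MI ran from -1.73 without DAPA replicate 2 to -0.28 without DAPA replicate 1. In DAPA vs. Sham it was called without Sham replicate 1 (2.54) and without DAPA replicate 1 (2.76).

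The RT1-DM chains load peptide. RT1-DMa was low, with 0 to 61 reads per rat: 0.664, 0 and 0 FPKM in the Sham rats, 1.11, 2.00 and 1.03 FPKM in the MI rats, and 0.561, 0.432 and 0.224 FPKM in the DAPA rats. The 2 Sham rats at 0 are bounded by 3 reads, which would be 0.169 and 0.197 FPKM. RT1-DMa was higher in MI than in Sham (log2 fold change 0.98, SE 0.30, adjusted p = 0.0397) and lower in DAPA than in MI (-0.74, SE 0.24), both short of the fold threshold. Without Sham replicate 1 it was called in MI vs. Sham at 1.23.

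RT1-DMb had no common level within any group. Its level was 5.87, 2.74 and 0 FPKM in the Sham rats, 0.297, 17.1 and 6.56 FPKM in the MI rats, and 11.3, 0.143 and 0.190 FPKM in the DAPA rats. The reads behind these values were 107, 49 and 0, then 10, 525 and 219, then 325, 4 and 6, and the Sham rat at 0 is bounded by 3 reads, or 0.196 FPKM. Each group thus held at least 1 rat near 0 and at least 1 rat with over 100 reads. The log2 fold change was 0.93 (SE 1.05, adjusted p = 0.516) in MI vs. Sham, -1.13 (SE 1.22, adjusted p = 0.737) in DAPA vs. MI and -0.21 (SE 1.03, adjusted p = 0.898) in DAPA vs. Sham, where its sign changed when values were scaled to all reads (0.17). It moved from 0.09 without MI replicate 2 to 1.99 without MI replicate 1, where it was called, in MI vs. Sham, and from -2.19 without MI replicate 1 to -0.55 without DAPA replicate 2 in DAPA vs. MI. A rat low in RT1-DMb was not always low in RT1-DMa, and the ratio of RT1-DMb to RT1-DMa ran from 0.268 in MI replicate 1 to 20.1 in DAPA replicate 1.

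The RT1-DO chains, which restrain RT1-DM, were at 0.106 to 5.83 FPKM. RT1-DOa was even within Sham and within DAPA, at 1.95, 1.81 and 1.77 FPKM in the Sham rats, 3.10, 5.83 and 4.0 FPKM in the MI rats, and 1.16, 1.34 and 1.13 FPKM in the DAPA rats. It was the only member whose 3 DAPA rats lay below all Sham rats as well as all MI rats. It had the smallest p of the members in DAPA vs. MI (log2 fold change -1.23, SE 0.22), and without MI replicate 2 it was at -1.04 and still called. Against Sham, MI was at 0.87 (SE 0.22, adjusted p = 0.0215), past the p threshold but not the fold threshold, and without MI replicate 1 it was called at 1.04. The difference from Sham in DAPA was -0.36 (SE 0.21, adjusted p = 0.222), which did not pass the test and changed sign when values were scaled to all reads (0.15).

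RT1-DOb, the beta chain, was at 1.82, 0.106 and 0.743 FPKM in the Sham rats, 2.40, 4.26 and 2.82 FPKM in the MI rats, and 0.562, 1.36 and 2.08 FPKM in the DAPA rats. The MI rats stood above all others, while Sham and DAPA overlapped. The log2 fold change was 1.22 (SE 0.37, adjusted p = 0.0366) in MI vs. Sham and fell to 0.88, short of the fold threshold, without Sham replicate 2. From MI to DAPA it was -0.86 (SE 0.30), called only without DAPA replicate 3 (-1.09) among the fits that left out 1 rat. Without MI replicate 2 it was -0.68 and no longer at a limma p under 0.05.

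Ciita, the coactivator, was low in level but followed the same order of groups. It was at 1.52, 0.459 and 0.412 FPKM in the Sham rats, 2.86, 6.56 and 3.87 FPKM in the MI rats, and 1.58, 2.27 and 1.66 FPKM in the DAPA rats, from 20 to 639 reads per rat. The means were 0.799 ± 0.629, 4.43 ± 1.91 and 1.84 ± 0.375 FPKM (SD, n = 3 each). The 3 groups did not overlap, though Sham replicate 1 came close to the lowest DAPA rat. The log2 fold change was 1.59 (SE 0.34, adjusted p = 0.0108) in MI vs. Sham. Between DAPA and MI it was -0.89 (SE 0.27), and in DAPA vs. Sham it was 0.70 (SE 0.30, adjusted p = 0.116). On FPKM themselves the means differed 2.41-fold between MI and DAPA. The value on log2(FPKM + 1) is smaller because Ciita lies near the pseudocount, and it was -0.62 without MI replicate 2 and called at -1.10 without MI replicate 1.

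In groups Sham and MI 1 rat led for nearly all members. Sham replicate 1 was the highest Sham rat for 10 of 10 members, and MI replicate 2 was the highest MI rat for 9 of 10, all but RT1-Bb. In group DAPA no rat was highest for more than 5. The summed level of 14 macrophage markers was also highest in Sham replicate 1 (267.4 FPKM, against 157.8 and 123.5 FPKM) and in MI replicate 2 (1767 FPKM, against 952.8 and 970.1 FPKM). In group DAPA that sum was highest in replicate 3 (1062 FPKM, against 615.3 and 510.6 FPKM), which was the highest of its group for only 3 members.

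In order of mean level, Cd74 and RT1-Da led in every group. Cd74 did not overlap with RT1-Da in any group, and RT1-Da did not overlap with the next gene in groups MI and DAPA. RT1-Db1, RT1-Ba and RT1-Bb followed, and neighbours among them overlapped between rats in each group, as did RT1-DMb with its neighbours. Ciita, RT1-DOa and RT1-DOb overlapped in the same way, and RT1-DMa was lowest in each group at 0.221 FPKM in Sham, 1.38 FPKM in MI and 0.406 FPKM in DAPA.

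The ratio of Cd74 to RT1-Da was nearly fixed in the infarcted hearts. It was 6.11, 6.30 and 6.31 in the MI rats and 6.57, 6.30 and 6.30 in the DAPA rats, and 7.10, 10.5 and 13.2 in the Sham rats, all of which lay above. Cd74 to Ciita stayed between 171 and 259 in all 9 rats, with no separation of the groups. RT1-Da to Ciita was 18.4 to 24.0 in Sham and 29.6 to 41.0 in the infarcted hearts, without overlap. In the infarcted hearts the pairs of chains of 1 molecule varied more than Cd74 to RT1-Da. There RT1-Da to RT1-Db1 ran from 4.59 to 8.09 and RT1-Bb to RT1-Ba from 0.411 to 1.67. The lowest RT1-Bb to RT1-Ba of all rats was 0.107 in Sham replicate 2, from only 7 reads of RT1-Bb and 22 of RT1-Ba. These ratios are descriptions and were not tested.

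**Figure D3:**
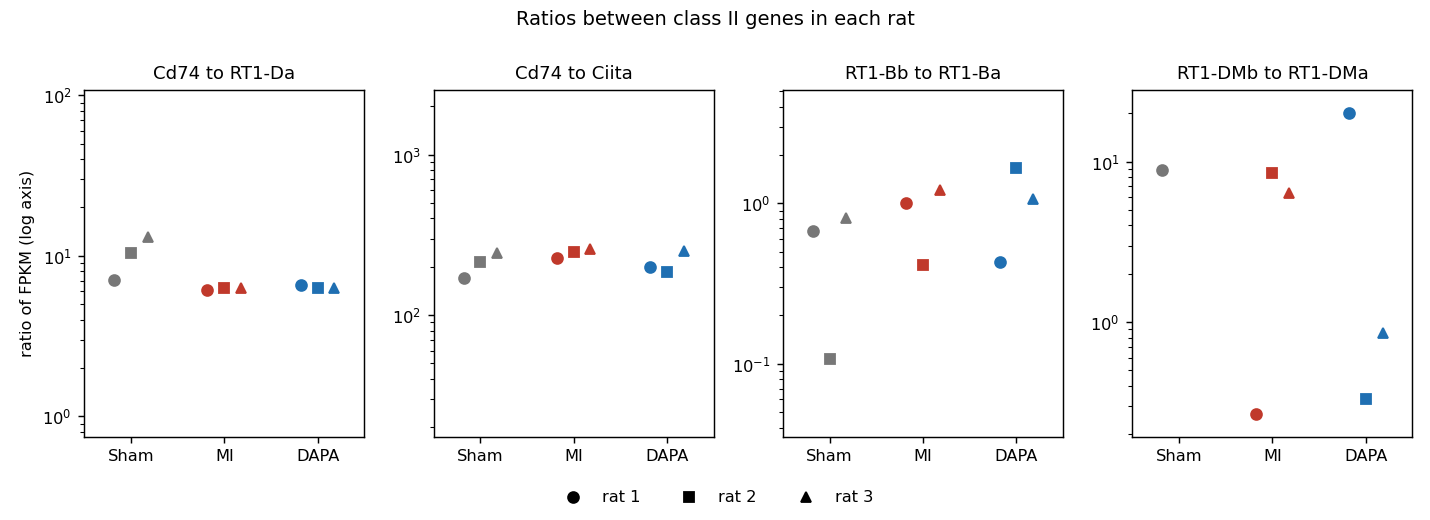
Ratio of FPKM between class II genes in each rat (log axes that all span the same number of decades, symbols by rat number within the group). Cd74 to RT1-Da lies between 6.11 and 6.57 in all MI and DAPA rats, whereas RT1-DMb to RT1-DMa ranges from 0.268 to 20.1, with Sham replicates 2 and 3 not drawn because RT1-DMa was at 0.

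Over the 9 rats, the genes whose log2(FPKM + 1) was most like that of Cd74, out of 14157 genes, were RT1-Da (Pearson r = 0.99) and Ciita (r = 0.99). RT1-Db1 followed at 0.97, RT1-Ba at 0.96, RT1-DMa at 0.91, RT1-DOb at 0.89, RT1-Bb at 0.81, RT1-DOa at 0.68 and RT1-DMb at 0.41. These values are descriptions over 9 libraries that fall into 3 groups and share their FPKM denominators. With group means subtracted, r with Cd74 was 0.98 for RT1-Da and 0.97 for Ciita, and 0.43 for RT1-Bb. Among genes that are not members, the most like Cd74 were Prkcb, a protein kinase C (0.98), Cd37, a tetraspanin of leukocytes (0.98), Apoe, apolipoprotein E (0.98), Igfbp4, an IGF-binding protein (0.98), and Tspan5, another tetraspanin (0.97). With group means subtracted they were Zfp867 (0.98), Stim2 (0.97), Stard4 (0.97), AABR07019083.1 (0.96) and RF01192 (0.96).

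The factors that act with and upstream of Ciita were not called in DAPA vs. MI. The list held the RFX and NF-Y subunits that bind the X and Y boxes and the interferon-gamma pathway that induces Ciita, 15 of its 17 genes being tested. In MI vs. Sham 3 were called higher and 1 lower, not far from the 12.1% and 10.3% of all genes. Among them were Spi1, a myeloid transcription factor (log2 fold change 2.19, adjusted p = 0.00781), and Irf8 (1.45, adjusted p = 0.00554). Rfxank, a subunit of RFX, was lower in MI (-0.93, adjusted p = 0.00475) but short of the fold threshold. The remaining calls, named after their values were seen, were Ifngr2, a chain of the interferon-gamma receptor, higher, and Nfyc, a subunit of NF-Y, lower. Between DAPA and MI 0 of 15 had a limma p under 0.05, against 3.9% of all genes lower and 4.59% higher. The list's median was -0.18. The lowest p there was that of Irf8 (-0.64, adjusted p = 0.558). Ifng itself, named after its values were seen, was at 0 to 0.573 FPKM in all rats and was not tested.

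Of 10 genes tested for proteases and other proteins that prepare class II molecules, 7 were called higher in MI vs. Sham. Of all genes 12.1% were, and the list's median log2 fold change was 1.57. Among the 7 was Marchf1, which reached 1 FPKM only in the MI rats of this comparison. Cathepsin S (Ctss), which cuts the invariant chain, was at 25.6, 8.46 and 7.0 FPKM in the Sham rats, 148.2, 243.0 and 153.5 FPKM in the MI rats, and 67.8, 64.4 and 124.9 FPKM in the DAPA rats. It was called lower in DAPA than in MI (-1.10, SE 0.32), though without MI replicate 2 it was at -0.88 and not called. Marchf1, a ubiquitin ligase that removes class II from the surface, was also called lower (-1.0, SE 0.28), but it reached 1 FPKM only in the MI rats of this comparison and so passed the filter only through the group where it was high. The other 8 were not called, for example Ifi30, a thiol reductase of the endosome (-0.46, adjusted p = 0.558), and Ctsd, cathepsin D (0.03, adjusted p = 0.958). The list's median in DAPA vs. MI was -0.33, and 2 of its 10 genes tested were called lower, against 1.11% of all genes.

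Genes of other arms of antigen presentation formed lists of MHC class I presentation and of costimulation. Of 11 class I genes, 1 was called higher in MI vs. Sham, the chaperone Calr (1.24, adjusted p = 0.00494), against 12.1% of all genes. The number called lower was 0, against 10.3%. At a limma p under 0.05 alone, 4 were higher and 2 lower, against 24.5% and 24.4% of all genes. In DAPA vs. MI 0 had a limma p under 0.05, against 3.9% of all genes lower and 4.59% higher. The median of the class I genes there was -0.14. Of 5 costimulation genes tested, 2 were called higher and 1 lower in MI vs. Sham, against the same 12.1% and 10.3%. Cd83, a surface marker of mature dendritic cells, was at 1.78 (adjusted p = 0.0299). Cd86, a ligand of CD28, was at 1.66 (adjusted p = 0.0018) and the inhibitory ligand Pdcd1lg2 at -2.79 (adjusted p = 0.000975). No costimulation gene was called in DAPA vs. MI, against 1.11% of all genes lower and 0.951% higher. Pdcd1lg2 was at 0.60 there. Whether these lists differ from the class II genes in DAPA vs. MI was not tested.

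Macrophage markers moved with these results, and dendritic cell markers did so only in part. Of 14 macrophage markers, 13 were called higher in MI vs. Sham, against 12.1% of all genes, with a median of 2.31. Between DAPA and MI all 14 had a negative value, with a median of -0.76. Of these, 5 had a limma p under 0.05, against 3.9% of all genes lower. Lyve1 was the 1 called lower (-1.02, or -0.86 and not called without MI replicate 2), against 1.11% of all genes. Against Sham, 12 of the 14 were called higher in DAPA, as 9.54% of all genes were, with a median of 1.85. Their summed level was 123.5 to 267.4 FPKM in the Sham rats, 952.8 to 1767 FPKM in the MI rats and 510.6 to 1062 FPKM in the DAPA rats. On this sum MI and DAPA overlapped through DAPA replicate 3. There C1qa, C1qb and C1qc, at 310.9, 202.5 and 284.9 FPKM, made up most of it. On the mean log2(FPKM + 1) of the list all DAPA rats lay below all MI rats, at 4.79 (SD 0.34) against 5.46 (SD 0.39). Of 12 dendritic cell markers 8 were tested. In MI vs. Sham 3 of them were called higher and 1 lower, against 12.1% and 10.3% of all genes, with a median of 0.19. Among the 3 were Clec10a (1.83, adjusted p = 0.00144) and Flt3 (1.48, adjusted p = 0.00828). Flt3 reached 1 FPKM only in the MI rats of this comparison and so passed the filter only through the group where it was high. Clec9a was lower in MI (-0.82, adjusted p = 0.007) but short of the fold threshold. The 1 called lower was Zbtb46, a gene picked out once its values were known, at 8.39 to 11.4 FPKM in the Sham rats and 2.51 to 4.73 FPKM in the MI rats. In DAPA vs. MI the median was -0.39, and Clec10a (-1.06) and Ccr7 (-1.34) were called lower, against 1.11% of all genes. Clec10a was at -0.87 and not called without MI replicate 2, and Ccr7 reached 1 FPKM only in the MI rats of this comparison. The summed level of the list was 53.9 to 65.2 FPKM in Sham, 97.9 to 144.3 FPKM in MI and 53.7 to 76.3 FPKM in DAPA. Clec10a, which macrophages also express, carried the higher sum in MI, since without it the sums were 34.0 to 40.4 FPKM in Sham, 30.3 to 38.3 FPKM in MI and 23.2 to 28.5 FPKM in DAPA. Cd209a and Siglech were at or near 0 in all 9 rats, at no more than 0.267 FPKM.

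Lymphocyte markers were high in MI replicate 2. The B cell markers summed to 4.04, 70.3 and 15.5 FPKM in the MI rats and to 2.28 to 3.44 FPKM in the other 6 rats. The plasma cell markers summed to 132.8, 3985 and 747.7 FPKM in the MI rats, to 41.9 to 49.7 FPKM in Sham and to 62.9 to 95.3 FPKM in DAPA. The T cell markers summed to 66.3, 289.9 and 98.1 FPKM in MI, 12.8 to 29.5 FPKM in Sham and 36.8 to 69.6 FPKM in DAPA. Cd4, which rat macrophages also carry, made the gap between Sham and DAPA, for without it the sums were 11.4 to 28.4 FPKM in Sham, 18.0 to 165.7 FPKM in MI and 13.7 to 18.1 FPKM in DAPA, and the median of the list in DAPA vs. Sham was 0.04. In DAPA vs. MI, 1 of 3 B cell, 3 of 6 plasma cell and 3 of 9 T cell markers tested were called lower. Of all genes 1.11% were. Among the markers called were Fcrla (-1.45), Jchain (-5.38) and Cd3e (-1.85). Fcrla, the 1 B cell call, passed the filter only through the MI rats, as did Irf4 among the plasma cell calls and Cd8b among the T cell calls. Without MI replicate 2, Jchain was at -3.82 and Cd3e at -1.05, both still called. Leaving out MI replicate 2 left 5 members called lower in DAPA vs. MI, against 0.564% of the 12942 genes tested in that fit. Of 6 lymphoid tissue markers tested, 1 was called lower in DAPA than in MI, against 1.11% of all genes. It was Cxcl13, a chemokine for B cells (-1.56, or -1.14 and still called without MI replicate 2).

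Of the remaining lists, all 8 fibroblast markers were called higher in MI than in Sham, against 12.1% of all genes. Of them 1, Col1a1, was called lower in DAPA than in MI (-1.15), against 1.11%. Among 6 endothelial markers 4 were called lower in MI than in Sham, against 10.3% of all genes. In DAPA vs. MI 0 of them were called, against 1.11% lower and 0.951% higher. Among 9 cardiomyocyte markers 2 were called lower in MI than in Sham, against 10.3% of all genes. In DAPA vs. MI 2, Myl2 (1.59) and Tnni3 (1.56), were called higher, against 0.951%. Without MI replicate 2, Col1a1 (-0.89), Myl2 (0.96) and Tnni3 (0.95) were not called. The part of these cells in the class II results was not tested. In whole tissue, fewer cells that carry class II and less class II RNA per cell cannot be told apart.

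**Figure D4:**
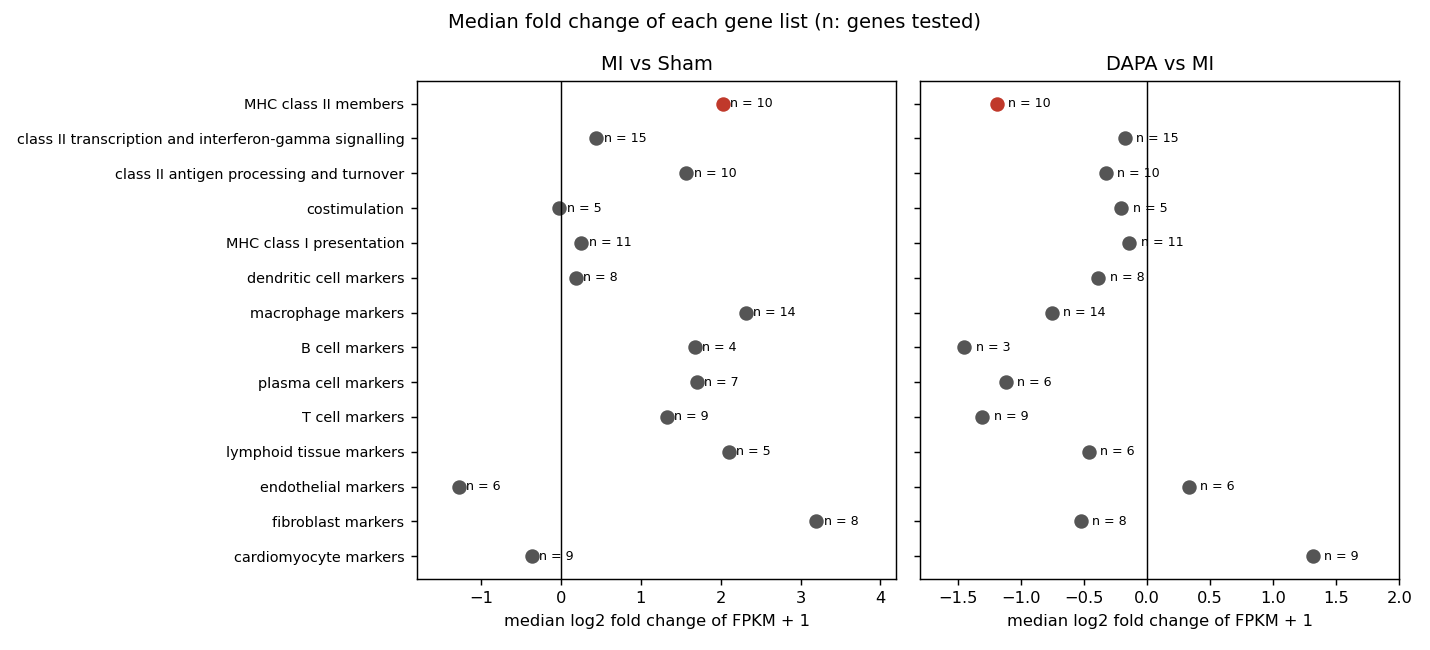
Median log2 fold change of FPKM + 1 (horizontal axes, with different ranges) for each gene list in MI vs. Sham (left) and DAPA vs. MI (right), with the number of genes tested beside each point and the class II genes in red. In DAPA vs. MI the class II genes have a median of -1.19, the macrophage markers -0.76, the T cell markers -1.31 and the class I genes -0.14.

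The level of Cd74 was also set against the mean of the 14 macrophage markers within each rat, as the difference on the log2(FPKM + 1) scale. This difference was 4.24, 3.62 and 3.88 in the Sham rats, 4.05, 4.75 and 4.80 in the MI rats, and 3.50, 4.28 and 3.59 in the DAPA rats. The groups overlapped in each comparison. The means differed by 0.62 in MI vs. Sham (two-sided exact permutation p = 0.2), by -0.75 in DAPA vs. MI (exact p = 0.2) and by -0.12 in DAPA vs. Sham (exact p = 0.7), where the smallest p that 3 rats against 3 allow is 0.1. Adjusted over the 3 comparisons by Benjamini-Hochberg, the exact p-values were 0.3, 0.3 and 0.7. A change of Cd74 beyond that of macrophage markers was thus not detected, and this design could not have passed 0.05. Set against the dendritic cell markers in the same way, Cd74 differed by 2.6 in MI vs. Sham and by -1.05 in DAPA vs. MI, with no overlap of rats in either. Against the B cell markers the differences were 1.88 and -0.46, again without overlap, and against the T cell markers they were 1.25 and -0.14, with overlap. The B cell list lay near 0 outside group MI. Its mean log2(FPKM + 1) was 0.32 in Sham and 0.38 in DAPA, against 1.32 (SD 0.94) in MI. These values for the other cell types are descriptions. The sign of the difference from macrophage markers in DAPA vs. Sham was lost without Sham replicate 1 (0.041) or without DAPA replicate 1 (0.02).

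**Figure D5:**
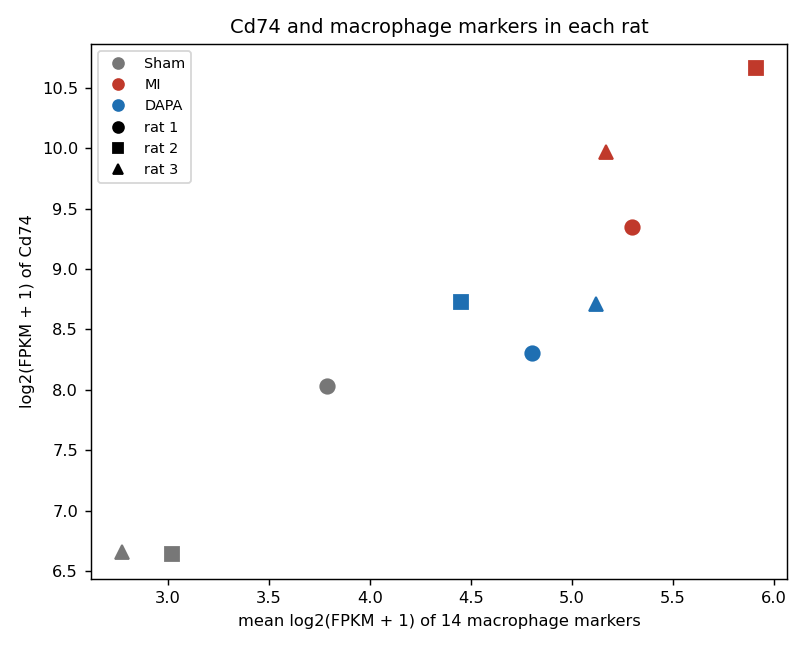
Log2(FPKM + 1) of Cd74 (vertical axis) against the mean log2(FPKM + 1) of 14 macrophage markers (horizontal axis) in each rat, coloured by group. The DAPA rats lie between the Sham rats and the MI rats on the Cd74 axis, and DAPA replicate 3 has a macrophage marker mean near that of MI replicates 1 and 3 with a lower Cd74.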

How the data were processed

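Total RNA of 9 left ventricles was sequenced after poly-A selection. What the authors deposited is a table of FPKM, already divided by gene length and a library denominator, in which each rat has its own column. The submitters' processing notes name HISAT2 2.0.5, StringTie 1.3.3b, featureCounts 1.5.0-p3 and DESeq2, and the genome build is not given in the sources used here. Columns were assigned to groups by their names, and 0 columns were left unused. Sample titles hold paired labels such as Sham1-1 and Sham1-2, whose meaning is not given.

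The FPKM values of a gene are whole multiples of the value of 1 read (tolerance 0.01), which gave reads for 18896 of 18896 genes seen in at least 4 libraries. The denominator was 0.826 to 1 per recovered read in group Sham and 1.54 to 2.10 in the other groups, relative to Sham replicate 1. Floors of 3 reads cover counting error only.

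limma 3.58.1 in R 4.3.3 was run on log2(FPKM + 1) with an empirical Bayes trend, 2 groups per fit, keeping genes that reached 1 FPKM in 3 or more of the 6 rats. The fold changes understate those of low genes. A gene was called where its p was below 0.05 and its log2 fold change lay above 1 or below -1, after the authors' criteria, with Benjamini-Hochberg adjustment over all genes. Fits ran on the whole table. Data were also simulated at the MI means, with a dispersion of 0.1 for every gene, a common depth and no outlying rat. There 92.1% of 190 genes changed 4-fold among 12675 were called and 0 took the wrong sign, while 53 genes simulated without change were called. Real spread differs between genes and rats, so these results need not hold for the members. Single values were compared by exact permutation over the rats, computed in Python 3.11.15 with numpy 2.4.6. The limma p-values set a difference of group means against the spread between these rats, which is estimated in part over all genes. The exact p-values rank a difference among the relabellings of these rats.

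The members and gene lists were chosen with earlier results of these data known. Named genes are all members, from each other list at most 3 genes of smallest p in DAPA vs. MI and in MI vs. Sham, and the 5 genes most like Cd74 with and without group means subtracted. Alternatives were a pseudocount of 0.1, no filter, all 9 rats in 1 fit, the replicate block, 2 other scalings, adjusted p-values and each rat left out. RT1-Hb, Cd79a, Pecam1, Ttn, Timd4, Trac and Icosl were not matched by symbol and are not analysed here. Strand-specific counting is not given in the sources used here, so reads of overlapping antisense genes may be included.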

Additional observations from a re-analysis of the deposited data

How the results depend on the processing

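The sign of each member's log2 fold change was kept in 117 of 117 alternative values in MI vs. Sham, in 114 of 114 in DAPA vs. MI and in 98 of 102 in DAPA vs. Sham. The 4 exceptions were RT1-DMb scaled to all reads (0.17), without DAPA replicate 2 (0.38) and without DAPA replicate 3 (0.35), and RT1-DOa scaled to all reads (0.15). With each rat left out in turn, 6 to 9 members were called in MI vs. Sham (medians 1.80 to 2.82), against 10.1% to 13.5% of all genes higher. In DAPA vs. MI 4 to 6 were called (medians -1.54 to -1.0), against 0.564% to 1.84% of all genes lower. In DAPA vs. Sham 2 to 5 were called (medians 0.61 to 1.92), against 8.19% to 10.9% of all genes higher. The highest count and median there came without Sham replicate 1, where 10.9% of all genes were called higher. A pseudocount of 0.1 raised the median in MI vs. Sham to 2.78 and the members called lower in DAPA vs. MI to 8, against 1.69% of all genes. With an adjusted p in the call, 0 members were called in DAPA vs. MI, whereas 8 had an unadjusted limma p under 0.05. Scaling to all recovered reads moved the median of all genes to 0.92 in MI vs. Sham, -0.21 in DAPA vs. MI and 0.74 in DAPA vs. Sham. Beside these shifts the medians of the members were 2.79, -1.43 and 1.64, and 6 were called higher in DAPA vs. Sham, as 34% of all genes were under this scaling. The difference between Cd74 and the macrophage markers ranged from 0.47 to 0.86 in MI vs. Sham, -0.99 to -0.60 in DAPA vs. MI and -0.37 to 0.041 in DAPA vs. Sham with 1 rat left out, where it changed sign without DAPA replicate 1 (0.02) and without Sham replicate 1 (0.041). The cause of these shifts was not tested.

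The replicate numbers only name rats: deviations of rats with the same number correlated at 0.02 on average in MI vs. Sham, -0.18 in DAPA vs. MI and 0.10 in DAPA vs. Sham, and not every pair was over 0.1. When the replicate number entered the fit as a block, 7, 5 and 2 members were called in these comparisons, against 7, 5 and 3 without the block, the difference being RT1-Ba (1.33 with the block, no longer at a limma p under 0.05). The RT1-Ba call in DAPA vs. Sham was also lost with a pseudocount of 0.1, without the filter and with mitochondrial genes left out. Over all genes, the block gave 146 lower and 71 higher calls in DAPA vs. MI, against 147 and 126. With the block 12.3% of all genes were called higher in MI vs. Sham, 1.1% lower in DAPA vs. MI and 9.68% higher in DAPA vs. Sham.

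Only RT1-DMa, RT1-DMb and RT1-DOb had under 3 reads in any rat. RT1-DMb ran from 4 to 325 reads within group DAPA, whose rats had 11440726 to 12082280 reads outside the mitochondrial genome. The cause of this spread was not tested.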
